A study of Platynereis dumerilii with 97 samples.

Results

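The hours in which the trochophore larva of the marine annelid Platynereis dumerilii becomes a metatrochophore were described from 14 single whole embryos of a time course of 97. The members were chosen by labelled age, with 1 library left out on its profile: 6 embryos labelled 37, 38, 39, 40, 41 and 42 h after fertilization formed the earlier window, and 8 labelled 43, 44, 45, 46, 47, 49, 50 and 51 h the later. All 14 carry labels numbered up to 50, called the first library series here, whereas every embryo labelled 52 h and above carries a number from 51 up, called the second. The library left out is that labelled 48 h, whose profile resembled that of an earlier hour in earlier results of these data, so membership rests in part on measured values; its values are given beside the results. By the labels the windows differ in age only: spawn from several matings in North Sea water developed at 18 °C, an individual was frozen at each hour, its RNA was taken up in Trizol, and the polyadenylated part was amplified by CEL-Seq, a method that reads the 3' ends of transcripts. No strain, genotype, treatment or parentage is given. No 2 embryos had the same hour, so the spread within a window holds development as well as differences between embryos, and p-values measure only that spread.

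The trochophore is a ball-shaped larva that swims with a belt of ciliated cells, the prototroch, and carries an apical sensory organ, larval eyes and yolk-rich cells that nourish it. In the metatrochophore the trunk behind the prototroch elongates and becomes visibly segmented, sacs that make the bristles form on the segments, and the ventral nerve cord and the muscles of the trunk differentiate, before the crawling and swimming nectochaete with its parapodia follows. The files list transcripts by identifier and do not pair identifiers with gene names, so neither the stage nor any cell type could be checked against marker genes, and transcripts are given by identifier alone. In whole embryos more cells of a type and more RNA per cell cannot be told apart.

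Transcript counts per embryo ran from 687201 to 1403309 in the earlier window and from 725309 to 1653093 in the later. The medians were 741604 and 1345826, and the change of depth lay 1 hour before the border. Depth was 687201 to 966112 in the libraries labelled 37 to 41 h, 1195204 to 1653093 in those labelled 42 to 50 h without 48 h, and 725309 in that labelled 51 h. Synthetic ERCC RNAs added as spike-ins followed the same line in their counts, with 50838 to 64257 at 37 to 41 h and 93256 to 141475 at 42 to 50 h. Levels below are in CPM, each count divided by its library's TMM-scaled total and multiplied by 1e6.

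The difference between the windows held more rises than falls, and the rises were larger. Of 6607 transcripts with enough counts to be tested, out of 10908 listed, 160 were higher at 43 to 51 h and 41 were lower (edgeR quasi-likelihood test, Benjamini-Hochberg adjusted p under 0.05), which is 2.42% and 0.621% of those tested and 3.04% together. The median log2 change of the rises was 2.04, with a range of 0.57 to 5.35, and 153 of the 160 were over 2-fold, 84 over 4-fold and 17 over 16-fold. Their median level went from 27.0 CPM, close to the 25.4 CPM of all tested transcripts, to 125 CPM. The falls were smaller and concerned transcripts that were already abundant, with a median log2 change of -1.02, a range of -4.70 to -0.64, 22 of 41 over 2-fold, and a median level that went from 193 to 90.0 CPM. Over all tested transcripts the median log2 change was 0.02 and the median level 25.4 CPM before and 26.3 CPM after. At an unadjusted p under 0.05 there were 1035 transcripts (edgeR).

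**Figure D1:**
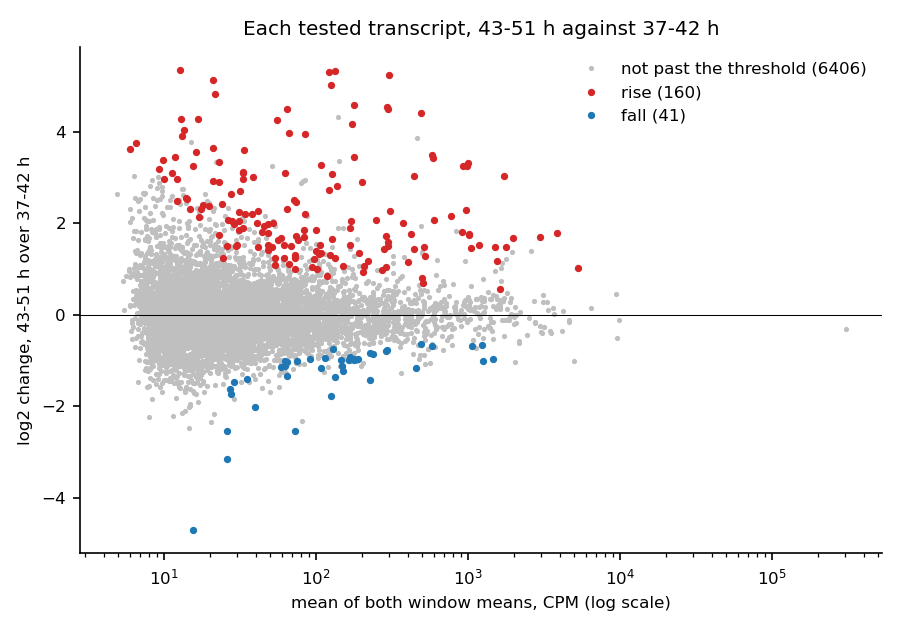
Each tested transcript by its mean level (CPM, log scale) and its log2 change from 37 to 42 h to 43 to 51 h. The 160 rises (red) reach a log2 change of 5.35 and occur from low to high levels, whereas all but 5 of the 41 falls (blue) are under 4-fold.

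For 132 transcripts, 2.00% of those tested, no embryo of one window overlapped with any of the other, 110 with the later window higher (1.66%) and 22 with it lower (0.333%). Among the 160 rises 87 were separated in this way, and among the 41 falls 10. The number of calls depended on single embryos, and leaving out that of 39 h gave 94. There were 97 calls without 37 h, 98 without 50 h, 106 without 49 h, 118 without 40 h, 118 without 47 h and 125 without 51 h, and 64 of the rises and 7 of the falls were called in each of the 14 fits that left out 1 embryo. With the library labelled 48 h added to the later window no transcript passed the threshold, and 660 had an unadjusted p under 0.05 (edgeR). With the transcript total as a covariate 62 rises and 7 falls were called, and with every embryo thinned to the lowest total 164 and 45, of which 176 were among the 201.

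PT_v1_tr_10597 gave the largest rise among abundant transcripts whose windows did not overlap. It lay between 0 and 10.5 CPM in the 6 earlier embryos, with a median of 4.67 CPM, and between 50.3 and 567 CPM in the 8 later ones, with a median of 150.4 CPM. Hour by hour the later values were 50.3 CPM at 43 h, 60.1 at 44 h, 115 at 45 h, 94.2 at 46 h, 186 at 47 h, 294 at 49 h, 530.0 at 50 h and 567 CPM at 51 h. The level therefore kept climbing inside the later window, and the embryo with least of it at 43 h still held more than any of 37 to 42 h. The mean moved from 5.57 ± 4.00 (SD, n = 6) to 237 ± 208 CPM (SD, n = 8), a 39.5-fold rise in the fit (log2 change 5.31, SE 0.75, adjusted p = 0.00210091, edgeR). It rested on 33 counts in the earlier window and 2140 in the later. No count of it was seen in any embryo of 31 to 36 h or in the library labelled 48 h. The embryos of 25 to 30 h held 15 counts of it. Among them that at 26 h, with 18.5 CPM on 8 counts, lay above every embryo of 37 to 42 h. With limma-voom its call ended (log2 change 4.88, adjusted p = 0.133961, limma).

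PT_v1_tr_06302 was the other of the 2 named rises. Its values ran from 0 to 42.3 CPM in the earlier window, with a median of 6.07 CPM and no count in 3 of 6 embryos, and from 113 to 765 CPM in the later, with a median of 266 CPM. The earlier embryos with most of it were those at 41 h (24.7 CPM) and 42 h (42.3 CPM), next to the border. The mean moved from 13.2 ± 17.3 (SD, n = 6) to 345 ± 232 CPM (SD, n = 8), a log2 change of 4.58 (standard error 0.88, adjusted p = 0.0159458, edgeR). Its highest value was at 50 h, and the embryo at 51 h held 273 CPM. In the second library series it averaged 196 ± 120 CPM at 52 to 58 h (SD, n = 7). The call ended with limma-voom (adjusted p = 0.0775366, limma) and with the transcript total as a covariate (adjusted p = 0.0513694, edgeR).

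The 2 named falls were 2.65-fold and 2.20-fold, and both transcripts kept counts in every later embryo. PT_v1_tr_10692 ran from 42.5 to 64.3 CPM in the earlier embryos, median 45.0, and from 4.63 to 29.3 CPM in the later, median 19.8. The windows did not overlap, and the lowest embryo was that labelled 47 h. The mean moved from 50.8 ± 10.3 (SD, n = 6) to 19.2 ± 8.91 CPM (SD, n = 8), a log2 change of -1.41 (standard error 0.35, adjusted p = 0.0361389, edgeR), resting on 263 and 194 counts. This call ended without any 1 of the libraries labelled 37, 39, 40, 46, 49 and 50 h (highest adjusted p = 0.0806382, edgeR), in the fit that adds the transcript total (adjusted p = 0.216233, edgeR) and in a fit of all first-series windows (adjusted p = 0.310583, edgeR). PT_v1_tr_09168 ran from 66.0 to 102 CPM in the earlier window, median 80.2, and from 23.1 to 49.0 CPM in the later, median 37.6. Again every later embryo lay below every earlier one. Its mean moved from 81.4 ± 15.6 (SD, n = 6) to 36.8 ± 9.27 CPM (SD, n = 8), a log2 change of -1.14 (standard error 0.24, adjusted p = 0.0157111, edgeR). It kept this call whichever embryo was left out and lost it in the fit that adds the transcript total (adjusted p = 0.0839614, edgeR) and in the fit of all first-series windows (adjusted p = 0.273978, edgeR).

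**Figure D2:**
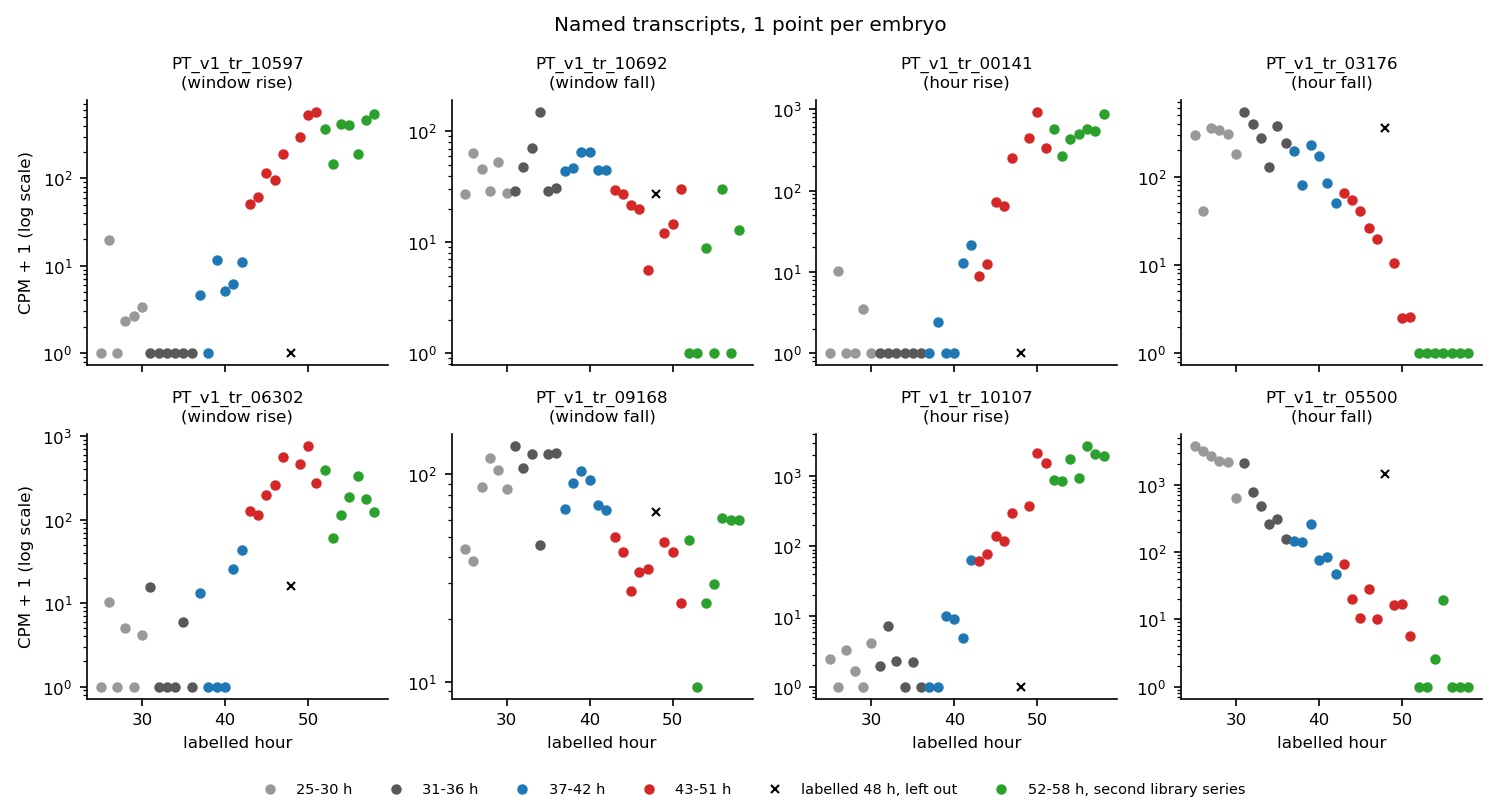
Level of 8 transcripts (CPM + 1, log scale) in each embryo against its labelled hour, from 25 to 58 h, with 1 point per embryo. PT_v1_tr_10597, PT_v1_tr_06302, PT_v1_tr_00141 and PT_v1_tr_10107 climb over 37 to 51 h, PT_v1_tr_03176 and PT_v1_tr_05500 decline from 31 h on, and the library labelled 48 h (cross) lies off the line of its neighbours in most panels.

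The same 14 embryos were asked whether levels followed the hour as a straight line on the log2 scale, which does away with the border at 42 to 43 h. More transcripts passed than in the comparison of windows: 472 of 6607 (7.14%), of which 314 rose (4.75%) and 158 fell (2.39%; edgeR, adjusted p under 0.05). The median slope was 0.21 log2 units per hour among the rises and -0.12 among the falls. Of the 201 transcripts that differed between windows 185 also followed the hour, all 185 in the same direction, 16 did not, and 287 followed the hour without differing between windows. Both analyses use the same counts and do not support each other. Leaving out 1 embryo at a time gave 367 to 455 calls, and adding the library labelled 48 h at its labelled hour left 83, 78 of them rises.

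With hour and window in the same fit, no transcript had a window term past the threshold, and 141 had an unadjusted p under 0.05 (edgeR), while 43 followed the hour beside the window, 40 up and 3 down. A jump at the border on top of a steady change was therefore not detected at this number of embryos. The window is itself set by the hour, so the 2 terms overlap and are hard to tell apart in this fit. Absence of a jump cannot be concluded from it. Change with the hour was also looked for inside each window. Within 43 to 51 h, 44 of 7400 transcripts passed (0.595%), 38 rising (0.514%) and 6 falling (0.0811%), and 605 had an unadjusted p under 0.05 (edgeR). Of these 44, 28 were among the 160 rises between windows and 0 among the 41 falls. PT_v1_tr_10597 was one of them, with a slope of 0.45 log2 units per hour within the window (adjusted p = 0.000737961, edgeR). Leaving out the embryo of 43 h gave 22, and there were 23 without 44 h, 25 without 50 h and 27 without 51 h. Within 37 to 42 h, with 6 embryos, 4 of 6020 passed (0.0664%), all rising, and 316 had an unadjusted p under 0.05 (edgeR). The windows differ in number of embryos and depth, so the 2 counts were not tested against each other.

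The steepest rises along the hour, among transcripts of 50 CPM or more at 43 to 51 h not yet named, began from low levels. In the first-series embryos of 1 to 30 h PT_v1_tr_00141 was highest at 9 h (9.41 CPM) and 26 h (9.27 CPM). It had no count in any embryo of 31 to 36 h and none at 37, 39 and 40 h. It then stood at 11.7 CPM at 41 h, 20.5 at 42 h, 7.83 at 43 h, 11.4 at 44 h, 72.0 at 45 h, 63.5 at 46 h, 248 at 47 h, 448 at 49 h, 916 at 50 h and 329.7 CPM at 51 h. The values of 41 to 44 h are intermixed, so the windows overlap, and the level climbed from 45 h on. Its slope was 0.75 log2 units per hour (SE 0.066, adjusted p = 1.1511e-06, edgeR). The change between windows, from 5.60 ± 8.60 (SD, n = 6) to 262 ± 309 CPM (SD, n = 8), was close to the threshold (log2 change 5.31, SE 1.30, adjusted p = 0.0460784, edgeR), and it passed among the fits with 1 embryo less only without the library labelled 42, 43 or 44 h. It also ended with total-count scaling (adjusted p = 0.0561054, edgeR), no filter (0.0727127), the transcript total added (0.111945) and limma-voom (0.464714, limma). At 52 to 58 h it averaged 532 ± 182 CPM (SD, n = 7).

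PT_v1_tr_10107 was at 0 to 9.18 CPM in the embryos of 37 to 41 h and at 62.7 CPM at 42 h, level with the 61.4 CPM at 43 h. It reached 303 CPM at 47 h, 379 at 49 h, 2149 at 50 h and 1528 CPM at 51 h, so most of the later mean of 594 ± 793 CPM (SD, n = 8) came from the last 2 embryos. The earlier mean was 14.0 ± 24.2 CPM (SD, n = 6). Its slope was 0.70 log2 units per hour (SE 0.054, adjusted p = 4.59449e-07, edgeR), and its change between windows a log2 of 5.23 (SE 1.27, adjusted p = 0.0460784, edgeR). That window call ended in 10 of the 14 fits with 1 embryo less and remained without the library labelled 42, 43, 44 or 46 h. It also ended with total-count scaling (adjusted p = 0.055775, edgeR), no filter (0.0699688), the transcript total added (0.0914265) and limma-voom (0.315902, limma). Its mean was 1601 ± 721 CPM at 52 to 58 h (SD, n = 7).

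The steepest falls along the hour, among transcripts of 50 CPM or more at 37 to 42 h not yet named, ran toward 0. Of all falls the steepest slope was -0.555 log2 units per hour. PT_v1_tr_03176 ran from 49.5 to 230 CPM at 37 to 42 h, median 128, and from 1.50 to 64.6 CPM at 43 to 51 h, median 21.8. In the later window it went down with each embryo but the last, from 64.6 CPM at 43 h over 25.1 at 46 h and 9.60 at 49 h to 1.50 CPM at 50 h and 1.54 CPM at 51 h. No count was listed in any of the 7 embryos of 52 to 58 h. These second-series libraries detect fewer transcripts: at 687201 counts it was 4694 to 7280 in the 6 of them that were deep enough, against 8554 to 9295 at 43 to 51 h, and the part of this drop in a count of 0 was not tested. Its slope was -0.42 log2 units per hour (SE 0.047, adjusted p = 5.73435e-06, edgeR), whereas the change between windows, from 135 ± 73.4 (SD, n = 6) to 26.7 ± 23.7 CPM (SD, n = 8), missed the threshold (log2 change -2.31, SE 0.62, adjusted p = 0.05523, edgeR). That change did pass with DESeq2 size factors (adjusted p = 0.047762, edgeR), the stricter filter (0.0465307), thinned counts (0.0464718) and border hours left out (0.0197043), with limma-voom (0.0391491, limma) and the Wald test (0.00406356, DESeq2), and without the library labelled 42, 43 or 44 h. At 358 CPM, the library labelled 48 h stood apart, and with it the slope was -0.14 (adjusted p = 0.61201, edgeR).

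PT_v1_tr_05500 was an abundant transcript of younger embryos. It averaged 2441 ± 1064 CPM at 25 to 30 h and 680 ± 734 CPM at 31 to 36 h (SD, n = 6 each). It then ran from 45.6 to 257 CPM at 37 to 42 h, median 110.3, and from 4.62 to 65.9 CPM at 43 to 51 h, median 15.5. The windows overlap only because the embryo at 43 h (65.9 CPM) lies above that at 42 h (45.6 CPM). The mean moved from 124 ± 75.8 (SD, n = 6) to 20.8 ± 19.5 CPM (SD, n = 8), a log2 change of -2.54 (standard error 0.48, adjusted p = 0.00932238, edgeR), with a slope of -0.34 log2 units per hour (SE 0.044, adjusted p = 3.11164e-05, edgeR). At 1446 CPM, the library labelled 48 h stood apart, and adding it turned both signs, to a log2 change of 0.56 (adjusted p = 0.927533, edgeR) and a slope of 0.07 (adjusted p = 0.871263, edgeR). With the transcript total as a covariate the log2 change was -3.40 and the call ended (adjusted p = 0.0573164, edgeR).

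To see how each embryo stood without letting it choose transcripts, the comparison was repeated without it, and the embryo was placed by the transcripts called in its absence, on a scale where 0 is the mean log2 level at 37 to 42 h and 1 that at 43 to 51 h. The median position was -0.14 at 37 h, -0.19 at 38 h, -0.03 at 39 h, 0.22 at 40 h, 0.40 at 41 h and 0.57 at 42 h. It was 0.59 at 43 h, 0.69 at 44 h, 0.87 at 45 h, 0.81 at 46 h, 1.05 at 47 h, 1.11 at 49 h, 1.22 at 50 h and 1.32 at 51 h. Over rises and falls together, all 8 later embryos thus stood above all 6 earlier ones. Of the 13 successive steps 11 went up, and the step from 42 to 43 h was among the smaller. These positions used 94 to 292 transcripts per embryo, whose window means came from the other embryos. By the rises alone the windows were also separate, at -0.38 to 0.59 and 0.65 to 1.32. By the falls alone they overlapped, at 0.09 to 0.49 for 37 to 42 h and 0.37 to 1.17 for 43 to 51 h.

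Embryos outside the comparison extended the line on the younger side. Those of 25-30 h stood at -0.74 to -0.57 and those of 31-36 h at -0.71 to -0.25, and the library labelled 48 h stood at -0.58, within the range of both. That library was closer to the mean of 37-42 h than to that of 43-51 h for 146 of 160 rises and 37 of 41 falls, against 4023 of all 6607 tested transcripts. It had been left out because its profile resembled an earlier hour, and the transcripts were called without it. Its place on the younger side is therefore no independent result. Embryos of 52-58 h stood at 1.11 to 1.46, at 0.98 to 1.41 by the rises and 1.77 to 2.33 by the falls. They belong to the second library series, and age and series cannot be told apart there.

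**Figure D3:**
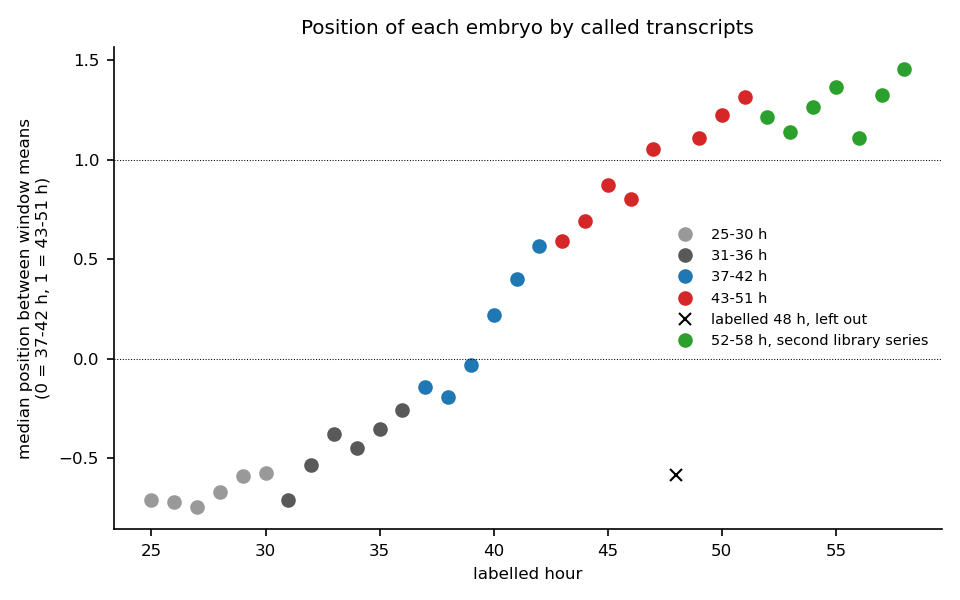
Median position of each embryo between the 2 window means (0 for 37 to 42 h, 1 for 43 to 51 h; no unit) against its labelled hour. The 14 embryos of the comparison, each placed by transcripts called without it, climb from -0.19 to 1.32, and the library labelled 48 h (cross) lies at -0.58.

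The rises had a median below that of all tested transcripts in every window before 37 h. Their median level was 1.97 CPM at 1-4 h, 2.07 at 9-12 h, 3.43 at 18-23 h, 4.47 at 25-30 h, 9.53 at 31-36 h, 27.0 at 37-42 h and 125 CPM at 43-51 h. The increase over those medians was thus under way before 37 h, while the median over all tested transcripts moved from 16.9 CPM at 1-4 h to 24.3 at 31-36 h. At 1-8 h, 26 of the 160 rises (16.25%) had no count in any embryo, against 318 of all 6607 (4.81%), and 54 (33.75%) had a mean of 5 CPM or more, against 73.6% of all. Before 37 h the window with the highest mean was 31-36 h for 83 of the 160 rises (51.9%), against 26.5% of all tested transcripts. The rises were picked as lower at 37-42 h than at 43-51 h, and the later embryos alone sufficed to pass the filter. All 5 tested transcripts with a mean under 1 CPM at 37-42 h were rises. Low earlier levels beside all tested transcripts thus follow in part from the choice. At 52-58 h the median of the rises was 147 CPM, and 103 of 160 (64.4%) were above their mean of 43-51 h, against 30.4% of all.

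The falls had a higher median level than all tested transcripts in every window before 37 h. Their median level was 110.2 CPM at 1-4 h, 163 at 9-12 h, 174 at 18-23 h, 267 at 25-30 h and 280 at 31-36 h, ahead of 193 and 90.0 CPM in the 2 windows compared. At 1-8 h, 35 of the 41 (85.4%) had a mean of 5 CPM or more, against 73.6% of all. The highest mean before 37 h was at 25-30 h for 13 of them (31.7%, against 14.8% of all) and at 31-36 h for another 13 (31.7%, against 26.5% of all). The falls were picked as higher in the earlier of the 2 windows compared than in the later. High levels of the falls before 37 h, beside all tested transcripts, thus follow in part from the choice. At 52-58 h the median was 39.6 CPM, and 38 of 41 were below their mean of 43-51 h, as were 4601 of all 6607. None of these counts and medians was tested, and those for 52-58 h set the second library series against the first.

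**Figure D4:**
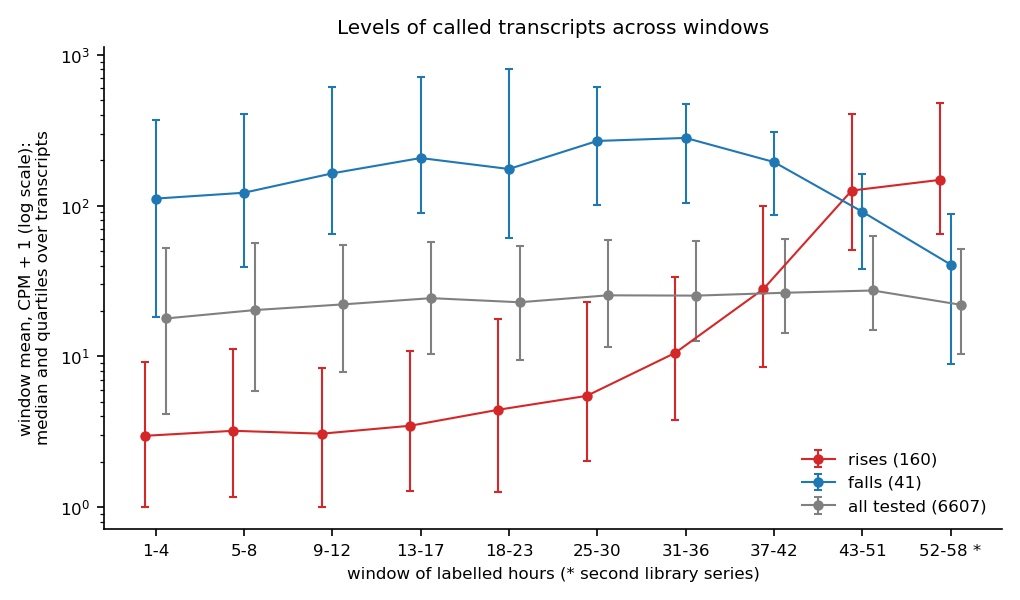
Median and quartiles, over transcripts, of the window mean (CPM + 1, log scale) for the 160 rises, the 41 falls and all 6607 tested transcripts in windows of labelled hours. The rises climb from a median of 9.53 CPM at 31 to 36 h to 125 CPM at 43 to 51 h, the falls drop from 280 to 90.0 CPM, and all transcripts together stay between 16.9 and 26.3 CPM.

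The rises held a larger share of the transcript counts in the later window. PT_v1_tr_02502, the most abundant transcript, was set aside for this sum. Of the other counts the 160 rises took 1.75% to 5.28% in the earlier embryos and 6.66% to 14.5% in the later, a mean of 3.32% ± 1.34 (SD, n = 6) and 10.3% ± 2.98 (SD, n = 8). The share went up from 1.75% at 38 h over 5.28% at 42 h and 6.66% at 43 h to 14.5% at 50 h, and was 14.1% at 51 h. At 52 to 58 h it was 16.4% ± 1.62 (SD, n = 7), in the second library series, where age and series cannot be told apart. It was 0.908% in the library labelled 48 h. The 41 falls moved from 2.05% ± 0.303 (SD, n = 6) to 0.997% ± 0.184 (SD, n = 8) and held 3.39% in the library labelled 48 h. Since these transcripts were picked for their change between the windows, the direction in the 14 embryos follows from the choice.

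Measures of the whole library moved less. PT_v1_tr_02502 took 25.3% to 51.3% of transcript counts in the earlier window, median 28.8%, and 21.3% to 34.5% in the later, median 26.5%. The means, 31.9% ± 9.60 (SD, n = 6) and 26.9% ± 4.85 (SD, n = 8), did not differ beyond the spread (adjusted p = 0.431568, two-sided exact permutation test over 3003 splits, adjusted over 4 measures). As a level its log2 change was -0.31 (SE 0.23, adjusted p = 0.581433, edgeR), and 0.04 without the library labelled 38 h. Other transcript counts per spike-in count ran from 7.33 to 10.0 in the earlier window, median 8.55, and from 6.66 to 9.74 in the later, median 8.97. Their means of 8.50 ± 1.04 (SD, n = 6) and 8.76 ± 0.994 (SD, n = 8) did not differ beyond the spread either (adjusted p = 0.630037, exact permutation test), and whether the amount of spike-in was equal between embryos is not stated. The share of reads not aligned was 49.0% ± 4.11 (SD, n = 6) and 50.7% ± 1.50 (SD, n = 8; adjusted p = 0.431568, exact permutation test).

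More transcripts were detected in the later window at an equal depth of 687201 counts. The number ran from 7927 to 9280 in the earlier embryos, median 8424, and from 8554 to 9295 in the later, median 9134. The embryo at 42 h had 9280 and that at 51 h 8554, so the windows overlap by these 2. The 6 lowest numbers were those of the embryos at 37 to 41 h and 51 h, whose libraries were the 6 shallowest. The means of 8493 ± 445 (SD, n = 6) and 9057 ± 237 (SD, n = 8) differed by 564 (adjusted p = 0.049284, two-sided exact permutation test over 3003 splits). The call ended in 12 of 14 leave-one-out comparisons (differences of 451 to 590.3), all but those without the library labelled 42 or 51 h, and at a depth of 200000 counts (adjusted p = 0.11988, exact permutation test). Total depth, which rose between 41 and 42 h, moved with this number, and its part in the result was not tested.

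**Figure D5:**
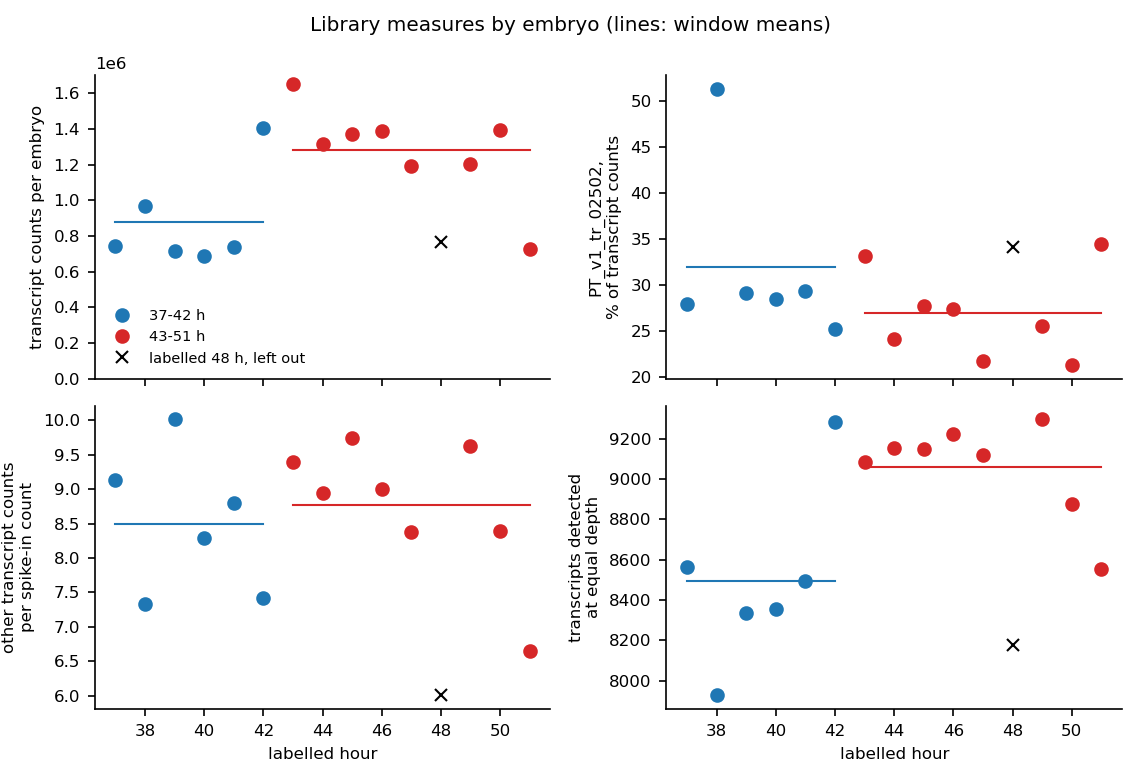
Transcript counts, share of PT_v1_tr_02502 (percent of transcript counts), other transcript counts per spike-in count and number of transcripts detected at 687201 counts in each embryo against its labelled hour, with the mean of each window as a line. Among the 14 embryos counts and detected transcripts are lower at 37 to 41 h and 51 h than at 42 to 50 h, the library labelled 48 h (cross) is low in both, and the embryo at 38 h has the highest share of PT_v1_tr_02502, 51.3%.

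Pairs of adjacent windows that hold none of these embryos gave fewer calls in the same test. Between 25 to 30 h and 31 to 36 h, 6 embryos each, 0 of 5015 transcripts passed, with 457 at an unadjusted p under 0.05 (edgeR). Of the 160 rises 63 could be tested there, and all 41 falls. Between 52 to 58 h and 59 to 65 h, 7 embryos each, 0 of 3838 passed, with 65 at an unadjusted p under 0.05, and 1 of 4454 (0.0225%) without the library labelled 62 h, with 117 at an unadjusted p under 0.05 (edgeR). The pairs differ in numbers of embryos, depth and transcripts tested, so these counts do not rank the windows by how much changed.

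Called transcripts often had neighbouring identifiers. Of 143 rises with a tested transcript next to them in number, 27 (18.9%) had a neighbour that was also a rise, against 3.53% of all tested transcripts with a tested neighbour. Of 37 such falls, 4 (10.8%) had a neighbour that was also a fall, against 0.883% of all. The files do not say whether neighbouring identifiers are pieces of the same gene, so the number of genes behind the 201 transcripts may be smaller, and neighbouring transcripts are not independent.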

How the data were processed

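The authors deposited 1 table of raw counts, whole numbers of reads and not molecules, with transcripts in rows and embryos in columns. The submitters' processing notes name CASAVA 1.8, HTSeq 0.5.4p3 and Bowtie2 2.1.0; their roles and settings, and the build, are not given in the sources used here. Only transcript rows were analysed. The 5 summary rows, which held 53.8% of counts in the 14 embryos, and the 92 spike-ins stayed out of library sizes and tests. No pair of embryos had identical counts.

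Windows were compared with edgeR 4.0.16 (R 4.3.3; glmQLFit, robust, TMM scaling, filterByExpr by window, which left out 4301 transcripts), with Benjamini-Hochberg adjustment over all transcripts tested. The hour entered the same fit as a number. Dividing the size of a log2 change or slope by the square root of its F statistic gave the standard error (SE). CPM were computed from the deposited counts with TMM-scaled totals. Positions used log2 CPM with a prior of 2 CPM. Single values were compared with exact permutation tests, also in R 4.3.3. Figures were drawn with Python 3.11.15, numpy 2.4.6, pandas 2.3.3 and matplotlib 3.10.9. Counting error alone makes a transcript of a few CPM uncertain, since it rests on a handful of counts per embryo.

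Named are the 2 largest rises and falls between windows that passed, had no overlap and averaged 50 CPM or more in their higher window, the 2 steepest rises and falls along the hour not yet named, at the same level, and PT_v1_tr_02502. The members, this rule and the lists were chosen with earlier results of these data known. Alternatives were DESeq2 1.42.0 size factors and its Wald test, limma 3.58.1 (voom), spike-in and total-count scaling, other filters, the library labelled 48 h added, border hours left out, the total as a covariate, a fit of all first-series windows and each embryo left out. Added after seeing the data were thinned counts, the total as a covariate of the hour and the library labelled 62 h left out. Leaving embryos out of the hour fits and of the permutation tests of single values was also added then. No paired analysis was possible because the labels number no pairs across windows.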

Additional observations from a re-analysis of the deposited data

Results flagged for a closer look

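In 24 sets of values, each a measure in 1 window, 5 had an embryo far from the others by Dixon's criterion at 95%. The chance rate of about 1 in 20 holds for values drawn from 1 normal distribution. Here each embryo had another hour, and most sets were levels of transcripts named for their change, so that rate does not apply. The embryo labelled 38 h had 51.3% of its transcript counts in PT_v1_tr_02502, far above the 29.3% of the next of 37 to 42 h, and the lowest share of reads not aligned, 40.8%, where the next had 49.1%. The embryo labelled 42 h held 62.7 CPM of PT_v1_tr_10107, far above the 9.18 CPM of the next in its window. The embryo labelled 43 h held 65.9 CPM of PT_v1_tr_05500, where the next of 43 to 51 h had 27.2 CPM. The embryo labelled 51 h had 6.66 other transcript counts per spike-in count, far below the next of its window with 8.37. For PT_v1_tr_10107 and PT_v1_tr_05500 the embryo that stood apart was the one at the border of its window.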

How the results depend on the processing

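The 201 transcripts that differed between windows became 458 with the DESeq2 Wald test (344 higher, 114 lower), 99 with limma-voom (80 and 19), 126 with total-count scaling (105 and 21), 311 with the border hours 42 and 43 left out (240 and 71), 69 with the transcript total as a covariate (62 and 7), 71 in a fit of all first-series windows (57 and 14) and 0 with the library labelled 48 h added. All 201 were among the 458, and 57 of the 71 among the 201. Counts within 1.5 times of the main one came from DESeq2 size factors (211), spike-in scaling (148), no filter (170), a stricter filter (212) and thinned counts (209). Leaving out 1 embryo gave 94 to 292 between windows, 22 to 39 within 43 to 51 h, and differences of 451 to 722 in transcripts detected. The 472 that followed the hour became 83 with the library labelled 48 h, and were 510 with DESeq2 size factors, 532 with no filter, 465 with thinned counts and 329 with the total as a covariate. With the library labelled 48 h the log2 change of PT_v1_tr_05500 turned to 0.56 and its slope to 0.074. The difference in other transcript counts per spike-in count, 0.268, turned to -0.616 with PT_v1_tr_02502 included and to -0.0383 with the library labelled 48 h, and none of these passed. The difference in transcripts detected lost its call at 200000 counts (389) and with the library labelled 48 h (467). The log2 change of PT_v1_tr_02502 ran from -0.42 to 0.040 with 1 embryo left out, positive without the library labelled 38 h. The cause was not tested in any of these cases.

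Scalings moved the median log2 change of all tested transcripts from -0.04 with spike-ins to 0.02 with TMM. The windows hold 6 and 8 embryos of different hours, levels of a few CPM rest on a handful of counts, and the identifiers carry no gene names, so what the 201 transcripts encode was not analysed here.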
